A study of Mus musculus with 2 samples.

Results

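Messenger RNAs for SNARE proteins and the machinery of granule exocytosis were examined in extracellular vesicles shed by cytotoxic T lymphocytes (CTL) of the mouse, which are T cells able to kill infected cells and tumour cells. The members were picked by a rule on gene symbols, which was drawn up with earlier results of these data known. They were the syntaxins (Stx), VAMPs, SNAP-25 relatives, Vti1, Gosr, Bet1 and Stxbp genes, the NSF adaptors Napa, Napb and Napg, and Ykt6, Sec22b, Nsf, Unc13d, Use1 and Bnip1. The rule found 46 genes, read by 53 probes, among the 19316 genes with a symbol on the array. The tested vesicle RNA came from material that left a DEAE column, a positively charged resin, at 0.5 M NaCl, and it was set against material that left the same kind of column at 0.3 M NaCl. Per the labels' protocols, both fractions derived from the medium of CTL cultured for 7 days, which was concentrated by ultrafiltration (750 kDa cutoff) before chromatography. Each fraction was read on 1 single-colour array after amplification and Cy5 labelling, so no test, p-value or replicate error exists, and every difference describes this pair of arrays. The labels give no mouse strain, no stimulus of the T cells and no number of vesicle preparations. Bulk vesicle RNA cannot separate fewer vesicles that carry a transcript from fewer copies in each vesicle.

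SNAREs are small, mostly membrane-anchored proteins whose helices zip together between a vesicle and its target membrane and drive their fusion. A complex needs a Qa, a Qb and a Qc helix and an R helix, and members of the SNAP-25 family supply the Qb and Qc helices together. Sec1/Munc18 proteins such as Stxbp2 clasp syntaxins, and Munc13 proteins such as Unc13d prime docked granules. The ATPase Nsf with its adaptors takes spent complexes apart. In CTL this machinery releases perforin and granzymes onto the target cell. Loss of Stx11, Stxbp2 or Unc13d in people causes familial hemophagocytic lymphohistiocytosis, a disease of failed killing.

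Stx7, a syntaxin of late endosomes, was the only SNARE or exocytosis gene that passed the filter and differed by 2-fold or more, higher at 0.5 M. Of the 5 members brightest by the mean of their probes, Vamp8 and Stx8 leaned to 0.5 M and Vamp7, Stx1a and Stx12 to 0.3 M, each by less than 2-fold. The brighter probe of Use1 taken by itself was past 2-fold at 0.5 M (1.21), but the mean of its 2 probes was not (0.75). The dimmer probe of Vamp5 was also past 2-fold (1.05), but the mean of its 2 probes was not (0.87). The members as a whole centred near all genes. Differences are log2 intensity at 0.5 M minus 0.3 M, after each array was centred on its median over the probes measured on both, which removed a shift of -0.30. A gene passed the filter on dim genes if its mean intensity was no lower than the middle of all measured genes on 1 or both arrays, which was 26.08 at 0.5 M and 32.02 at 0.3 M. Of the 46 members, 40 had a probe measured on both arrays and 27 passed the filter. Among these 27, 1 was at least 2-fold higher at 0.5 M and 0 were at least 2-fold lower. Over all 7446 genes that passed, 5.24% were at least 2-fold higher and 2.35% at least 2-fold lower. The members' median difference was 0.06, with 14 above and 13 below 0, beside a median of 0.08 over all genes that passed. Over all 40 measured members, dim ones included, the median was -0.02, with 18 above and 22 below 0. For all 13735 measured genes the median was 0.05, with 7387 above and 6339 below 0.

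**Figure D1:**
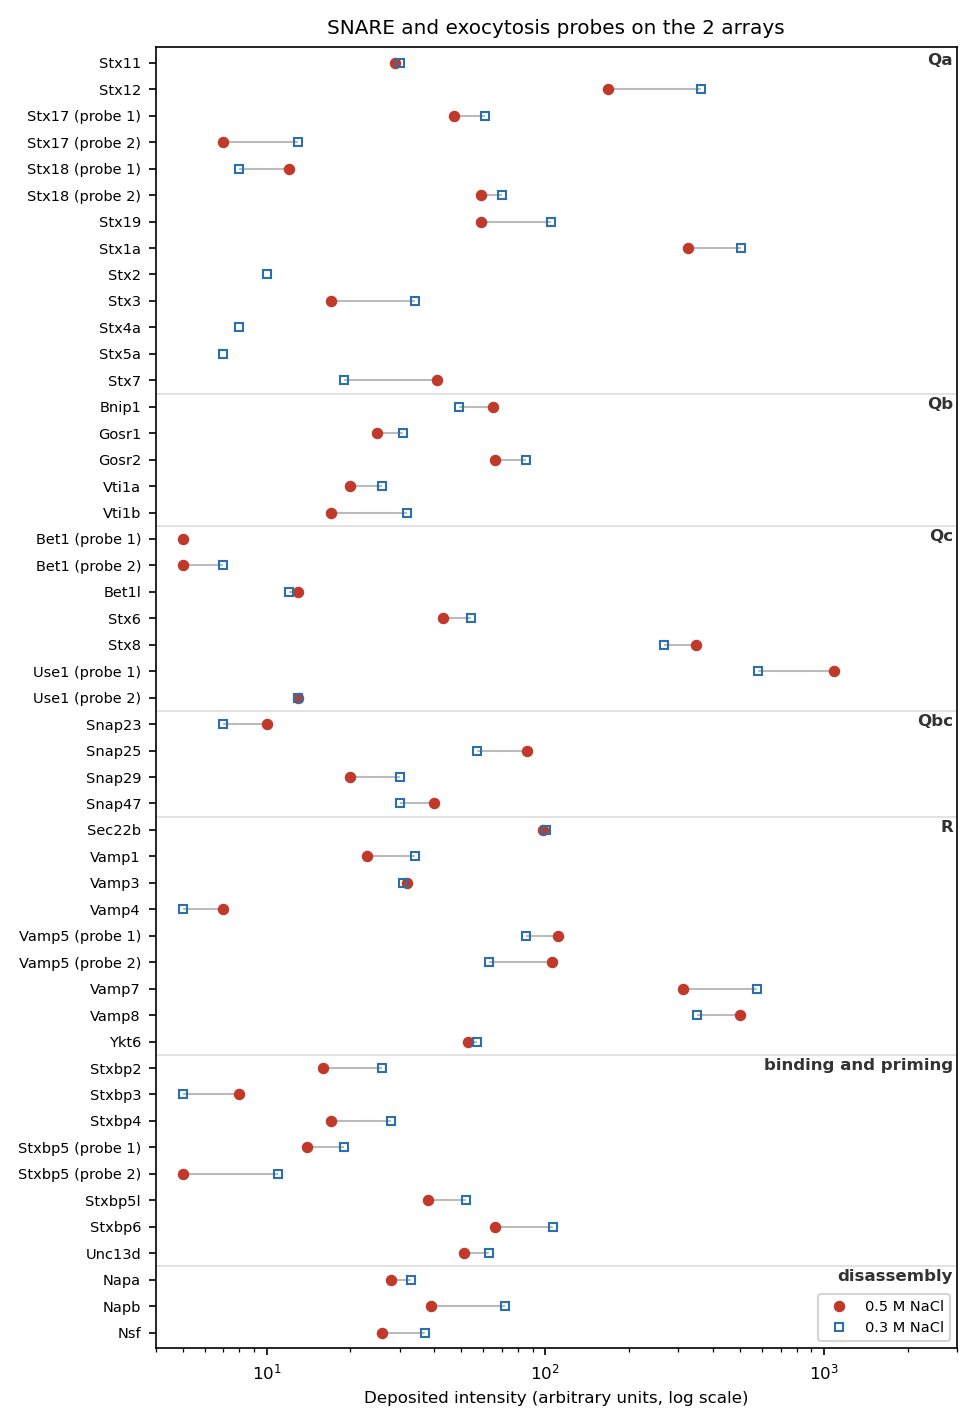
Deposited intensity (arbitrary units, log scale) of each member probe that had a value, at 0.5 M NaCl (filled circles) and 0.3 M NaCl (open squares), grouped by role. A missing symbol means an empty cell. The circle of Stx7 (41) lies far right of its square (19), while the circle of Stx12 (168) lies far left of its square (362).

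The scaling of the arrays sets where 0 lies. With the values as deposited, 1 member was 2-fold higher (Stx7) and 2 were 2-fold lower (Stx12 and Stx3), against 1.63% and 7.78% of all genes. With quantile normalization the members' counts were 1 and 0, against 3.29% and 3.77% of all genes. With a loess trend removed they were again 1 and 0, against 3.16% and 3.93%. Over the centred, as deposited, quantile, loess, pseudocount and brightest-probe values, 10 of the 27 members lay above 0 each time, 13 below 0 each time, and 4 (Napa, Sec22b, Stx11 and Ykt6) on both sides. As deposited, 10 members lay above 0 and 17 below it, against 2562 and 4800 of the 7446 genes that passed. With centring, 4159 of these 7446 genes lay above 0 and 3285 below it. Probes of the same gene offered the only measure of error. Their differences had a pooled SD of 0.55 over 358 genes with several probes, close to the SD of 0.58 among the 27 members. That spread leaves out variation between vesicle preparations. Past 0.55, a limit set after the values were seen, lay 8 members on the higher side (29.6%) and 4 on the lower side (14.8%). Of all genes that passed the filter, 20.6% and 12.1% did so.

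**Figure D2:**
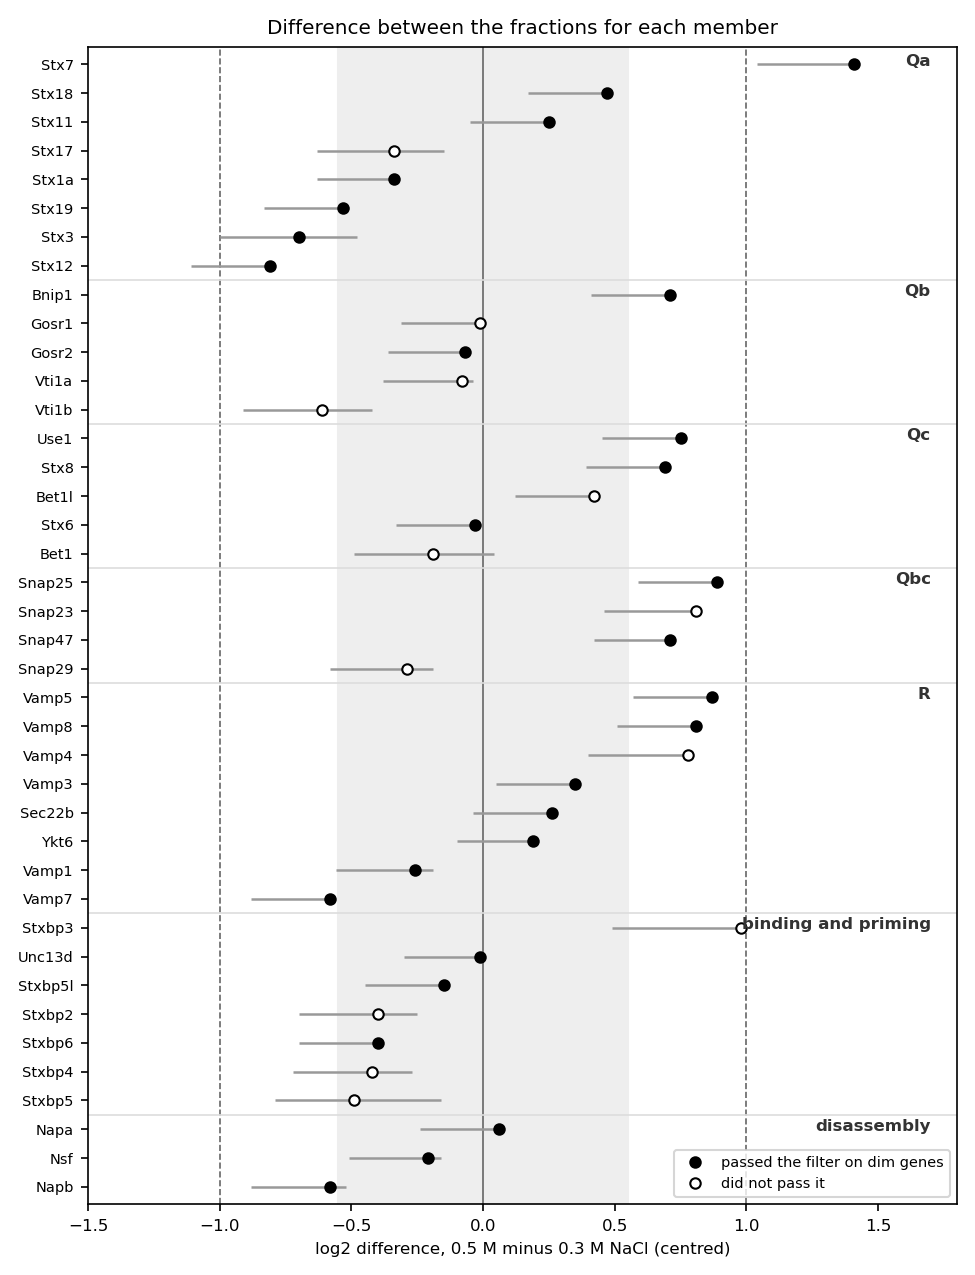
Centred log2 difference (0.5 M minus 0.3 M) of the 40 members measured on both arrays, grouped by role. Filled points passed the filter on dim genes, bars span the centred, as deposited, quantile, loess and pseudocount values, the grey band is 0.55 on either side of 0 (the SD between probes of 1 gene), and dashed lines mark 2-fold. Only the Stx7 point lies beyond a dashed line.

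Syntaxins of the Qa class, which sit on the target membrane and nucleate the complex, had members at both ends of the range. The class had 12 genes on the array, 8 measured on both arrays and 7 past the filter, with a median difference of -0.34 among these. Stx7, which serves fusion among late endosomes and lysosomes, had an intensity of 41 at 0.5 M and 19 at 0.3 M, 2.66-fold higher after centring (log2 difference 1.41). This difference lay above those of 98.9% of all genes that passed the filter. It ranged from 1.04 with a pseudocount to 1.41, and the rounding of intensities to whole numbers allows 1.35 to 1.47. Stx7 passed the filter through the 0.5 M array alone, so it could be kept only if it was high there, and it rests on 1 probe. Stx12, a syntaxin of recycling and early endosomes also known as syntaxin 13, stood at the other end. It read 168 at 0.5 M and 362 at 0.3 M, a difference of -0.81 (1.75-fold lower) and -1.11 as deposited.

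Syntaxins of the plasma membrane were lower at 0.5 M, near 0 or unmeasured. Stx3, which serves apical membranes and granule release in several cell types, read 17 at 0.5 M and 34 at 0.3 M (-0.70), and it passed the filter through the 0.3 M array alone. Stx11, the syntaxin that CTL need for granule fusion, read 29 at 0.5 M and 30 at 0.3 M (0.25, and -0.05 as deposited). It was thus level between the fractions within the SD between probes. Stx1a, the syntaxin of synapses, read 324 at 0.5 M and 503 at 0.3 M (-0.34, and -0.57 with loess). Stx19 read 59 at 0.5 M and 105 at 0.3 M (-0.53). Stx2 (10), Stx4a (8) and the Golgi syntaxin Stx5a (7) had values at 0.3 M only, and the trans-Golgi Stx16 had a value on neither array. Empty cells at 0.5 M were common for such dim probes: of all probes with an intensity under 10 at 0.3 M, 56.9% lacked a value at 0.5 M.

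Syntaxins of the endoplasmic reticulum (ER) and of autophagosomes each had 2 probes that differed in brightness. Stx18, an ER syntaxin, read 59 and 12 at 0.5 M on its probes, against 70 and 8 at 0.3 M, with differences of 0.05 and 0.88. Its mean difference of 0.47 rests on the dimmer probe, and Stx18 passed the filter through the 0.5 M array alone. Stx17, which drives fusion of autophagosomes with lysosomes, read 47 and 7 at 0.5 M, against 61 and 13 at 0.3 M, with differences of -0.08 and -0.59. Its mean of the probes was under the filter on both arrays.

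Qb SNAREs included 5 genes, all measured on both arrays, of which 2 passed the filter. Bnip1, an ER SNARE also known as Sec20, read 65 at 0.5 M and 49 at 0.3 M (0.71). Gosr2, a SNARE of ER-to-Golgi traffic also called membrin, read 66 at 0.5 M and 85 at 0.3 M (-0.07). The difference of Bnip1 exceeded the SD between probes, and that of Gosr2 did not. Vti1b, the late endosomal partner of Stx7, read 17 at 0.5 M and 32 at 0.3 M (-0.61), which missed the filter by a small margin. The dim Vti1a (-0.08) and Gosr1 (-0.01) lay close to 0.

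Qc SNAREs, also 5 genes, gave 3 past the filter and a median of 0.69. Stx8, a late endosomal SNARE that pairs with Stx7, read 348 at 0.5 M and 266 at 0.3 M (0.69, and 0.39 as deposited). Stx6, of the trans-Golgi and early endosomes, read 43 at 0.5 M and 54 at 0.3 M (-0.03). Use1, an ER SNARE, had probes that disagreed in brightness. Its brighter probe read 1089 at 0.5 M and 580 at 0.3 M, a difference of 1.21, whereas its other probe read 13 on each array (0.30). The mean of 0.75 was under 2-fold, and the brighter probe taken alone put Use1 past 2-fold. The Golgi SNAREs were dim, with Bet1l at 13 in the 0.5 M fraction and 12 in the 0.3 M fraction (0.42). Bet1 read 5 at 0.5 M and 7 at 0.3 M (-0.19). A further Bet1 probe read 5 at 0.5 M and was empty at 0.3 M.

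The SNAP-25 family, whose members give a complex its Qb and Qc helices, had 4 genes measured on both arrays and 2 past the filter, both above 0. Snap25, best known from neurons and endocrine cells, read 86 at 0.5 M and 57 at 0.3 M (0.89, and 0.59 as deposited). Snap47 read 40 at 0.5 M and 30 at 0.3 M (0.71) and passed the filter through the 0.5 M array alone. Snap23, the widely expressed relative that serves granule release in blood cells, was near the bottom of the range, at 10 in the 0.5 M fraction and 7 in the 0.3 M fraction. Its difference of 0.81 could be 0.64 to 0.99 from rounding alone. Snap29, which joins Stx17 on autophagosomes, was under the filter, at 20 for 0.5 M and 30 for 0.3 M (-0.29).

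R-SNAREs, which mostly ride on the vesicle, were measured on both arrays for 8 of 9 genes and passed the filter for 7, with a median of 0.26 and 5 above 0. Vamp8, an R-SNARE of endosomes and of secretory granules in blood cells, read 501 at 0.5 M and 351 at 0.3 M (0.81, and 0.57 with loess). Vamp7, an R-SNARE of late endosomes and lysosomes, read 311 at 0.5 M and 573 at 0.3 M (-0.58, and -0.83 with loess). They thus lay on opposite sides of 0. This pair was set side by side after its values were seen, and the gap between the differences was 1.39 (2.63-fold), or 1.36 to 1.40 under the scalings tried. With 1 array per fraction that gap has no error of its own. Both are bright probes that passed the filter on both arrays, and a constant shift between the arrays cancels in that gap.

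Among the other R-SNAREs that passed the filter, only Vamp5 lay past the SD between probes with centring. Vamp5, known from muscle, had 2 probes that gave similar values, 111 and 106 at 0.5 M against 85 and 63 at 0.3 M. Their differences were 0.68 and 1.05, with a mean of 0.87. Vamp3, also called cellubrevin and found on recycling endosomes, read 32 at 0.5 M and 31 at 0.3 M (0.35). It passed the filter through the 0.5 M array alone. The ER SNARE Sec22b read 98 at 0.5 M and 101 at 0.3 M (0.26). The lipid-anchored Ykt6, which acts at the Golgi and in autophagy, read 53 at 0.5 M and 57 at 0.3 M (0.19). The last 3 lay within the SD between probes, and Sec22b (-0.04) and Ykt6 (-0.10) were below 0 as deposited. Vamp1, a synaptic R-SNARE, was below 0, at 23 in the 0.5 M fraction and 34 in the 0.3 M fraction (-0.26). Vamp1 passed the filter through the 0.3 M array alone. Vamp4, of the trans-Golgi, was dim at 7 in the 0.5 M and 5 in the 0.3 M fraction, with a difference of 0.78 that rounding places between 0.54 and 1.04. Vamp2, which mouse CTL use for granule fusion, had a value on neither array and is not described further.

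**Figure D3:**
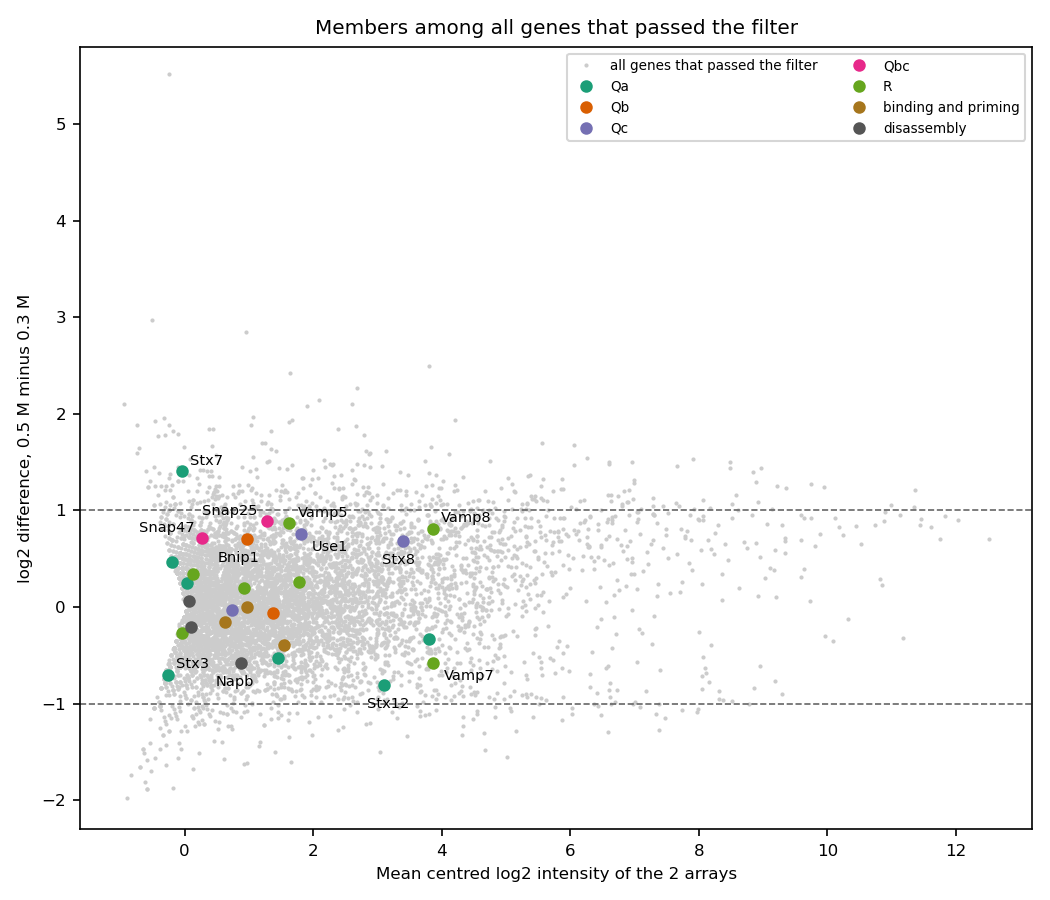
Centred log2 difference (0.5 M minus 0.3 M) against the mean centred log2 intensity of both arrays, for all 7446 genes that passed the filter (grey) and the 27 members (coloured by role). Members past 0.55 are named, and dashed lines mark 2-fold. Stx7 sits among dim genes, and Vamp8 and Vamp7 sit on opposite sides of 0 among the brighter ones.

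Proteins that bind syntaxins or prime granules lay at or below 0 among those that passed the filter. Of 7 genes, all measured on both arrays, 3 passed, with a median of -0.15 and 0 above 0. Unc13d, the Munc13 protein that primes lytic granules, read 51 at 0.5 M and 63 at 0.3 M (-0.01, and -0.30 as deposited). Stxbp6, also called amisyn, read 66 at 0.5 M and 107 at 0.3 M (-0.40). Stxbp5l, a tomosyn mostly known from the brain, read 38 at 0.5 M and 52 at 0.3 M (-0.15). All of these lay within the SD between probes.

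The remaining syntaxin-binding genes were dim. Stxbp2, the Munc18 protein that works with Stx11 in CTL, read 16 at 0.5 M and 26 at 0.3 M (-0.40) and did not pass the filter. Stxbp4 had a single measured probe, at 17 in the 0.5 M fraction and 28 in the 0.3 M fraction (-0.42), and a further probe empty on both arrays. The tomosyn Stxbp5 had probes at 14 and 5 at 0.5 M, against 19 and 11 at 0.3 M (mean -0.49). Stxbp3 alone of these was above 0, at 8 in the 0.5 M fraction and 5 in the 0.3 M fraction, with a difference of 0.98 that rounding places between 0.75 and 1.22.

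Genes that take SNARE complexes apart, 4 in all, had a median of -0.21 over the 3 that were measured, all of which passed the filter. That median is the ATPase Nsf itself, which read 26 at 0.5 M and 37 at 0.3 M (-0.21). Nsf passed the filter through the 0.3 M array alone, so it could be kept only if it was high there. The adaptor Napa, alpha-SNAP, read 28 at 0.5 M and 33 at 0.3 M (0.06). Napb, the neuronal beta-SNAP, read 39 at 0.5 M and 72 at 0.3 M (-0.58), slightly past the SD between probes. Napg, gamma-SNAP, had a value on neither array.

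Members were also sorted by 8 complexes they are known to form, a grouping made after the values were seen. The ER complex of Stx18, Bnip1, Use1 and Sec22b was the only one with all measured members on the same side of 0 with centring. Its 4 members ran from 0.26 to 0.75, though Sec22b was at -0.04 as deposited. Stx18 and Use1 have the discordant probes given above, and Stx18 passed the filter through the 0.5 M array alone. Of all genes that passed, 4159 of 7446 lay above 0 with centring. The late endosomal complex had Stx7 (1.41), Vamp8 (0.81) and Stx8 (0.69) above 0 and Vti1b (-0.61) below it. Vamp7, given above as an R-SNARE of late endosomes and lysosomes, was not in this set and was at -0.58. Stx7 and Vti1b were 2.02 apart, or 1.45 with a pseudocount. For the lytic granule of CTL, Vamp8 and the dim Snap23 were at 0.81, Stx11 at 0.25, Unc13d at -0.01 and Stxbp2 at -0.40. Vamp2, given above as used by mouse CTL for granule fusion, was not in this set and had no value. Of the synaptic set, Snap25 was at 0.89 and Stx1a at -0.34, with Vamp2 unmeasured, and the gap between Snap25 and Stx1a was 1.23. The autophagosomal set had Vamp8 above 0, with Stx17 (-0.34) and Snap29 (-0.29) below it.

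Markers of the source cells were present, and those of neurons were dim. Of 12 CTL markers, 11 had a probe here and a value on both arrays, and 9 lay in the top 25% of intensities on each array. They summed to 33173 at 0.5 M and 48008 at 0.3 M, mostly Tbx21 (25174 at 0.5 M and 39433 at 0.3 M). The 10 CTL markers that passed the filter had a centred median of 0.47. The 6 above 0 were Cd3g (0.93), Cd8b1 (0.87), Nkg7 (0.74), Cd3d (0.52), Gzmb (0.49) and Gzma (0.46). The 4 below it were Prf1 (-0.04), Cd8a (-0.28), Tbx21 (-0.35) and Ifng (-0.68). The median of these 10 was 0.18 as deposited, 0.15 with quantile normalization and 0.06 with loess. Of 12 neuron markers, 11 had a probe, 7 had a value at 0.5 M and 11 at 0.3 M, and 0 lay in the top 25% on either array. They summed to 189 at 0.5 M and 246 at 0.3 M and reached at most 60 (Gad1) at 0.5 M and 49 (Nefl) at 0.3 M. Those are the neuron markers that stand beside Stx1a (324 at 0.5 M and 503 at 0.3 M) and Snap25 (86 at 0.5 M and 57 at 0.3 M). Probes differ in how brightly they report a transcript, so these intensities do not rank the genes by abundance. Among markers of other cells, the B cell list summed to 360 at 0.5 M and 130 at 0.3 M. That excess was Cd79b alone (328 at 0.5 M and 94 at 0.3 M), since Cd79a read 11 at 0.5 M and 15 at 0.3 M, Ms4a1 read 21 on each array and Pax5 had no value. Macrophage and dendritic cell markers summed to 132 at 0.5 M and 127 at 0.3 M, platelet markers to 65 at 0.5 M and 93 at 0.3 M, and mast cell markers to 21 at 0.5 M and 33 at 0.3 M, with 0 of them in the top 25%. Their part in the differences of the SNARE genes was not tested.

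Genes that work beside SNAREs were described from lists of tethers, coats and regulators. Tethers and Sec1/Munc18 proteins of endosomes, which hand membranes over to SNAREs, had a median of -0.77, but only 5 of 12 genes on the array passed the filter. Vps33b, a Sec1/Munc18 protein, read 23 at 0.5 M and 53 at 0.3 M (-0.90). Vps45, the Sec1/Munc18 partner of Stx16, read 25 at 0.5 M and 54 at 0.3 M (-0.81). Vps18, a core subunit of the tethers called HOPS and CORVET, read 182 at 0.5 M and 381 at 0.3 M (-0.77). In the other direction Vipas39, the partner of Vps33b, read 69 at 0.5 M and 48 at 0.3 M (0.82), and Vps8 was at 0.10. Vps33b and Vps45 passed the filter through the 0.3 M array alone, so they could be kept only if they were high there. With no filter the median over 10 genes was -0.29.

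Granule transport and docking genes had a median of 0.27 over 12 genes, with 1 past 2-fold at 0.5 M. That gene was Ap3d1, a subunit of the AP-3 adaptor that sorts granule proteins, at 47 in the 0.5 M fraction and 23 in the 0.3 M fraction (1.33, and 1.03 as deposited). Ap3d1 passed the filter through the 0.5 M array alone. Sytl1, a synaptotagmin-like protein that links Rab27 to the membrane, read 249 at 0.5 M and 187 at 0.3 M (0.71). Rab27a, the small GTPase that docks lytic granules, read 67 at 0.5 M and 96 at 0.3 M (-0.22), and Unc13c, a neuronal Munc13 protein, read 29 at 0.5 M and 49 at 0.3 M (-0.46). Synaptotagmins and complexins, some of which tune fusion to calcium, had a median of 0.33 over 10 genes. These were Syt and Esyt genes, as no complexin passed the filter. With centring 1 was past 2-fold (Syt11), and 0 were as deposited. Syt11 read 119 at 0.5 M and 64 at 0.3 M (1.19, and 0.89 as deposited) and Syt12 read 56 at 0.5 M and 37 at 0.3 M (0.90). Syt7, a calcium sensor of lysosome and lytic granule release, read 24 at 0.5 M and 45 at 0.3 M (-0.61) and passed the filter through the 0.3 M array alone, and Esyt1 was at -0.16.

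The exocyst, which tethers secretory vesicles to the plasma membrane, had a median of 0.14 over 7 genes and 0 past 2-fold, from Exoc7 (0.71) and Exoc3l (0.70) to Exoc8 (-0.48) and Exoc6 (-0.56). ER and Golgi tethers had a median of 0.16 over 9 genes, from Trappc6a (0.93) and Trappc5 (0.43) to Rint1 (-0.33) and Cog5 (-0.73). Trappc6a read 221 at 0.5 M and 143 at 0.3 M, and Cog5 read 27 at 0.5 M and 55 at 0.3 M. The COPII and COPI coats, which bud the vesicles of ER and Golgi, had a median of -0.26 over 11 genes. Cope was past 2-fold, at 580 in the 0.5 M fraction and 298 in the 0.3 M fraction (1.26, but 0.96 and so under 2-fold as deposited), and Copa was at 0.99, against Arcn1 (-0.46) and Sar1a (-0.42). Across these 6 lists 3 of the 54 genes that passed the filter (5.56%) were at least 2-fold higher and 0 at least 2-fold lower with centring, against 5.24% and 2.35% of all genes. As deposited, 1 was higher (Ap3d1) and 4 were lower (Vps33b -1.20, Vps45 -1.11, Vps18 -1.07 and Cog5 -1.03), which is 1.85% and 7.41%, against 1.63% and 7.78% of all genes.

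**Figure D4:**
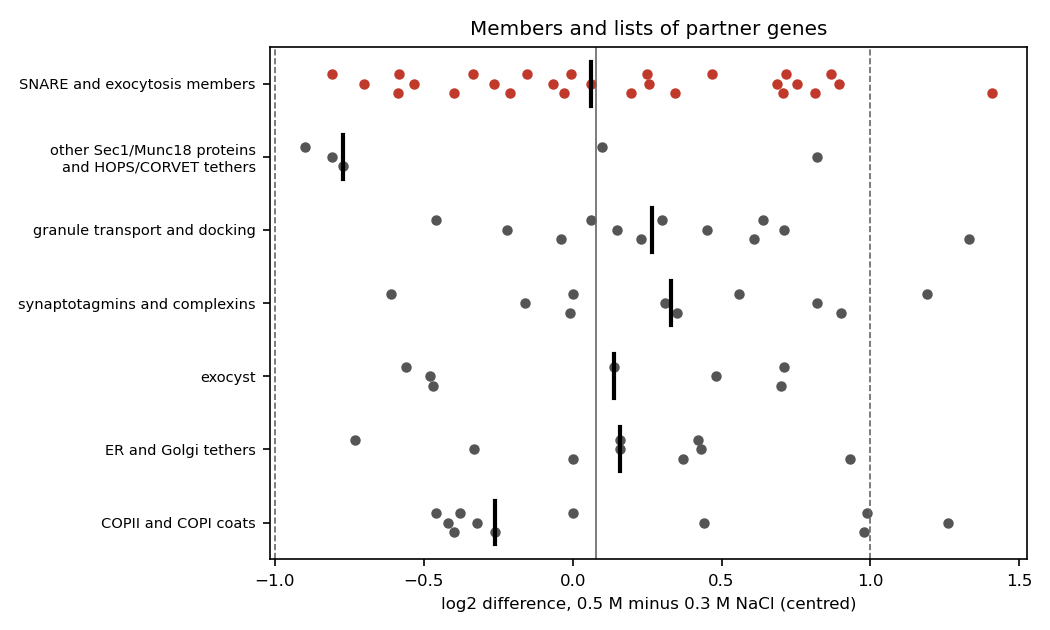
Centred log2 difference (0.5 M minus 0.3 M) of the SNARE and exocytosis members (red) and of 6 lists of partner genes (grey), 1 point for each gene that passed the filter. Black bars are list medians, the solid line is the median of all genes that passed (0.08) and dashed lines mark 2-fold. The medians run from -0.77 for the endosomal tethers to 0.33 for synaptotagmins and complexins.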

How the data were processed

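The table the authors deposited holds 1 linear intensity for each probe and array, as a whole number. Per the labels' protocols, an amino allyl kit amplified the RNA. How the arrays were scanned, background-corrected and normalized, and why cells are empty, is not given in the sources used. Symbols came from the platform annotation (20690 of 23473 probes had 1 symbol, 0 had several, 2783 had none). They were updated with RefSeq gene names (assembly GRCm38.p6) (8 symbols changed, 0 of them members). No array build is named, so no coordinates are given, and no probe sequences were used here. Intensities were log2-transformed and centred, and probes measured on both arrays were averaged per gene. With 1 array per fraction, genes are described by a size rule of 2-fold and no test was run. Members, lists and named genes were chosen with earlier results of these data known. Named were members past 2-fold, those known from killing or neurons, the brightest and most different of each role, those with several probes or missing values, and the most different partners. Python 3.11.15, pandas 2.3.3 and statsmodels 0.14.6 were used. Alternatives numbered 7: values as deposited, quantile normalization, loess (span 0.3), a pseudocount of 10, no filter, a filter at the 75th percentile, and the brightest probe.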

Additional observations from a re-analysis of the deposited data

How the results depend on the processing

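Alternatives moved few of the counts of SNARE and exocytosis genes. Members 2-fold higher numbered 0 with the stricter filter, under which Stx7 was not kept, and 2 with the brightest probe (Stx7 and Use1). Members 2-fold lower numbered 2 as deposited. The members' median of 0.06 turned to -0.24 as deposited and -0.02 with no filter. Among role classes, the Qa median was -0.63 as deposited and -0.57 with loess. The Qb median was -0.07 with no filter (5 genes) and with the stricter filter (1 gene). The R-SNARE median was -0.04 as deposited and 0.53 with the stricter filter (4 genes). As deposited, list medians were -1.07 for endosomal tethers, -0.03 for granule docking, 0.03 for synaptotagmins and complexins, -0.16 for the exocyst, -0.14 for ER and Golgi tethers and -0.56 for coats. With no filter they were -0.29 for endosomal tethers, 0.15 for synaptotagmins and complexins and -0.02 for coats. With the stricter filter they were 0.70 for the exocyst (1 gene), 0.43 for ER and Golgi tethers (3 genes) and 0.00 for coats (7 genes). Over all genes, those 2-fold higher numbered 390 with centring, 121 as deposited, 248 with quantile normalization, 235 with loess, 211 with a pseudocount and 701 with no filter. Those 2-fold lower numbered 175 with centring, 579 as deposited, 284 with quantile normalization, 293 with loess, 115 with a pseudocount, 380 with no filter and 83 with the stricter filter. As deposited, each difference keeps the shift of -0.30. The filters change which genes enter a count or median. Why values moved with the filters and the other alternatives was not tested.

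No paired analysis was possible because each fraction has 1 array, which also leaves no replicate to leave out. Of the 27 members, 24 rest on 1 measured probe, 5 passed the filter through the 0.5 M array alone and 3 through the 0.3 M array alone. Of the 13 measured members under the filter, 4 lay above 0 and 9 below it. With no filter, 7387 of all 13735 measured genes lay above 0 and 6339 below it. Among the 7446 genes that passed the filter, 4159 lay above 0 and 3285 below it.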

Other observations

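The coat list, taken apart after its values were seen, held both signs. Of the 5 COPI genes that passed the filter, which coat vesicles returning from Golgi to ER, 3 were above 0 (Cope 1.26, Copa 0.99 and Copz2 0.98) and 2 below it (Copb2 -0.38 and Arcn1 -0.46), with a median of 0.98. That median is Copz2 itself, which passed through the 0.5 M array alone, and over all 8 measured COPI genes the median was 0.45. Of the 6 COPII genes, which coat vesicles leaving the ER, 1 was above 0 (Sar1b 0.44), 4 were below it (Sec23b -0.26, Sec23a -0.32, Sec31a -0.40 and Sar1a -0.42) and Sec24c was at 0.00, with a median of -0.29, or -0.26 over all 9 measured. No test was possible.

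Of 5 members with 2 probes measured on both arrays (Stx17, Stx18, Stxbp5, Use1 and Vamp5), all had both probes on the same side of 0 with centring. The gaps between probes ran from 0.37 (Vamp5) to 0.91 (Use1).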
